A study of Mus musculus with 6 samples.

Results

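Foxp3, Il2ra, Ikzf2, Ctla4 and Il10 are 5 of the 32285 genes in 6 single-cell RNA libraries of mouse colon. They were chosen by symbol as genes of regulatory T cells and were followed in T cells, split into Foxp3-positive cells, with at least 1 Foxp3 unique molecular identifier (UMI), and Foxp3-negative cells, with none. Mice had been transplanted with bone marrow plus spleen cells, which gives graft-versus-host disease (GVHD), or with bone marrow alone (BM). The series asks how interleukin 34 from the epithelium bears on colonic macrophages and on graft-versus-host disease of the gut. The groups were sorted T cells of donor origin from IL-34-/- recipients (IL34KO), the same cells from wild-type (WT) recipients, donor CD11b+ CD64+ macrophages from IL34KO recipients, such macrophages from WT recipients, and those from GVHD mice and from BM mice. Each group was 1 library. Strain, age, transplant time and the number of animals pooled in a library are not given in the sources used here.

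Regulatory T cells restrain other immune cells, and in the colon they keep responses to food and microbes in check. Foxp3 is the transcription factor that defines them. Il2ra encodes CD25, the subunit that gives the interleukin 2 receptor its high affinity, and activated conventional T cells carry it too. Ikzf2 encodes Helios, an Ikaros-family transcription factor found in many regulatory T cells. Ctla4 encodes a surface receptor that competes with CD28 for CD80 and CD86 and that conventional T cells also gain on activation. Il10 encodes an anti-inflammatory cytokine, which macrophages and many T cells can make.

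The promoters of Foxp3, Il2ra and Ctla4 are shown because NFAT, STAT5, RUNX1 and forkhead factors are known to act at loci of regulatory T cells. The genes lie on the mouse GRCm38 build at chrX:7573644-7595245 (Foxp3, plus strand), chr2:11642807-11693193 (Il2ra, plus strand), chr1:69531214-69687245 (Ikzf2, minus strand), chr1:60887000-60915832 (Ctla4, plus strand) and chr1:131019845-131024974 (Il10, plus strand) in GENCODE M21. The windows below run from 250 bases before to 50 bases after a transcription start, on the plus strand, and are from RefSeq on GRCm38.p6. Ikzf2 and Il10 are named only. Capitals mark matches to GGAAA (NFAT), TTCNNNGAA (STAT5), TGTGGT (RUNX) or TGTTTAC (forkhead) on either strand.
Foxp3, upstream start, chrX:7579426-7579725: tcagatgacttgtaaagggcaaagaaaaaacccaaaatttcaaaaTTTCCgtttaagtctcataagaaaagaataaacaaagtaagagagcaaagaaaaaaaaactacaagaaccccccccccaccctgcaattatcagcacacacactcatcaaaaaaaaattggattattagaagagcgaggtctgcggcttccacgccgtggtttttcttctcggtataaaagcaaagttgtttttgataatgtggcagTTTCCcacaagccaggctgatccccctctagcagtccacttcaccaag
Foxp3, downstream start, chrX:7580233-7580532: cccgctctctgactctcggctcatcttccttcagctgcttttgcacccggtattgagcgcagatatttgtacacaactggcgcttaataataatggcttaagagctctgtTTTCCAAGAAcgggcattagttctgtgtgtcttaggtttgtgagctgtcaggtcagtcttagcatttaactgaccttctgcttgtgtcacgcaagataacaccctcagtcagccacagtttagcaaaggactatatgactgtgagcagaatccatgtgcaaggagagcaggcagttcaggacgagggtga
Il2ra, chr2:11642542-11642841: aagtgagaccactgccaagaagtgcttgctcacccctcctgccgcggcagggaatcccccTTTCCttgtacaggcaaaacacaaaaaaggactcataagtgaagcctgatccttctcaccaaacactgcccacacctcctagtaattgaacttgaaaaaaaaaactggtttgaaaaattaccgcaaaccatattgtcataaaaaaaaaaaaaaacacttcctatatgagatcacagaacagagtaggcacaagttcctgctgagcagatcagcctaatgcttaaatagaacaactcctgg
Ctla4, chr1:60908775-60909074: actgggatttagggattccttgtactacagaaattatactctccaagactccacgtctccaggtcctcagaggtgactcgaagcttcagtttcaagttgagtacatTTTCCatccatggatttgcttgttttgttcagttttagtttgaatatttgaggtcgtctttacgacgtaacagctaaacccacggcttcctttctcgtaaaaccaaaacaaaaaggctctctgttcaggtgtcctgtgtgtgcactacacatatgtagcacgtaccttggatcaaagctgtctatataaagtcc

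The upstream Foxp3 window held 2 GGAAA matches, both on the minus strand, and the other 3 windows held 1 each, also on the minus strand. GGAAA is short and stood in 61.3% of 32851 mouse promoter windows of this length. The downstream Foxp3 window also held a TTCNNNGAA match that overlaps its GGAAA match, and 8.30% of all windows hold that motif. No window of these genes held TGTTTAC or TGTGGT, which stood in 3.65% and 16.8% of all windows. A match is a description of the letters and not a binding site.

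The 6 libraries held 4169 to 18360 barcodes and 43660889 to 114425913 UMIs. BM shared 2502 of its 5874 deposited barcodes with GVHD, counted before any filter. These were dropped from BM and kept in GVHD, so some real BM cells may have been lost. The 14 other pairs of libraries shared 5 to 75 barcodes. T cells were gated by the receptor genes Cd3d, Cd3e, Cd3g, Trac, Trbc1 and Trbc2. The libraries labelled T cells held 1621 T-gated cells in IL34KO and 2802 in WT, only 20.2% and 21.7% of their cells, and most of the rest was myeloid. The macrophage libraries held 270 T-gated cells in IL34KO, 118 in WT, 146 in GVHD and 114 in BM, although that sort should have left T cells out. Of the 5071 T cells, 106 carried a barcode found in another library, 44 of them in GVHD, and 1 of 53 Foxp3-positive cells did. A T cell had a median of 2962.5 to 5932 UMIs, by library. A T cell with a Cd8a or Cd8b1 UMI and no Cd4 UMI is called CD8-type, and the converse CD4-type. Levels are given as CPM, the UMIs of a gene scaled to 1000000 UMIs of the class, with no correction for gene length, so they are compared within a gene only.

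Foxp3 was rare. All T cells together held 104 Foxp3 UMIs in 53 cells, 1.05% of T cells (exact 95% interval 0.784 to 1.36%). The counts of Foxp3-positive cells were 17 and 23 in the IL34KO and WT T-cell libraries, 5 and 4 in the IL34KO and WT macrophage libraries, and 1 and 3 in GVHD and BM. As shares of T cells these were 1.05% and 0.821% in the IL34KO and WT T-cell libraries, 1.85% and 3.39% in the IL34KO and WT macrophage libraries, and 0.685% and 2.63% in GVHD and BM. The exact intervals, which here and below cover counting error only, overlapped between every pair compared, at 0.612 to 1.67% in IL34KO and 0.521 to 1.23% in WT T-cell libraries. With each cell thinned to 1500 UMIs the shares were 0.812% and 0.483% in the IL34KO and WT T-cell libraries, 1.13% and 2.56% in the IL34KO and WT macrophage libraries, and 0.746% and 0.909% in GVHD and BM. Myeloid cells, which should lack Foxp3, carried a Foxp3 UMI in 0.0516 to 0.222% of cells, and epithelial cells in 0 to 0.493%. Median depth by library was 6830 to 17075 UMIs in myeloid cells, above the 2962.5 to 5932 in T cells. In GVHD the T-cell share, 1 of 146 cells (0.0173 to 3.76%), could not be told from the myeloid share of 0.222%.

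**Figure D1:**
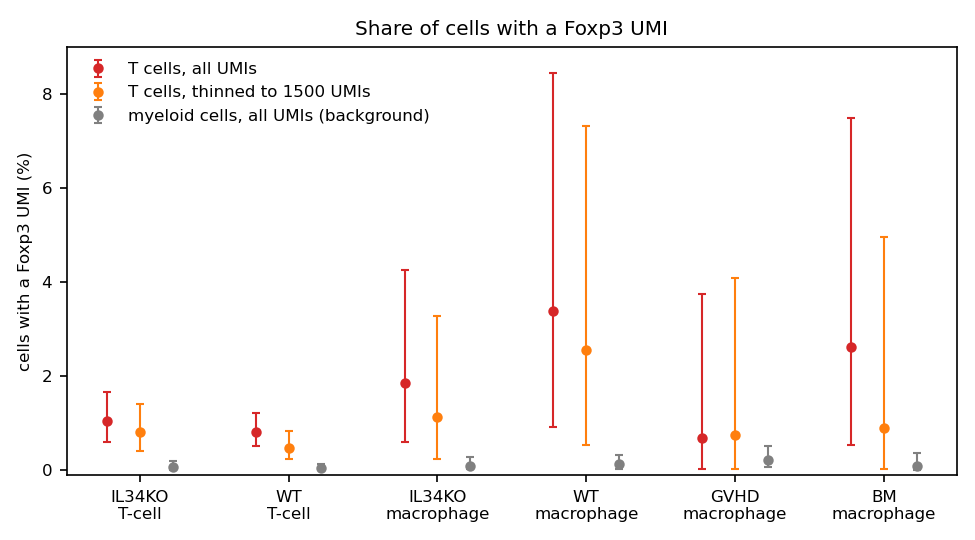
Percentage of cells with at least 1 Foxp3 UMI in each of the 6 libraries, for T cells with all UMIs, T cells thinned to 1500 UMIs and myeloid cells, with exact 95% intervals (counting error only). T-cell shares lie between 0.685% and 3.39%, and myeloid shares at or below 0.222%.

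The Foxp3-positive cells were not mostly CD4-type. Over the 6 libraries 21 of 2678 CD8-type cells (0.784%, exact interval 0.486 to 1.20%) and 12 of 1198 CD4-type cells (1.0%, 0.519 to 1.74%) had a Foxp3 UMI. A further 16 Foxp3-positive cells showed neither receptor and 4 showed both. By library, CD8-type cells made up 8 of 17 and 12 of 23 Foxp3-positive cells in the IL34KO and WT T-cell libraries, 1 of 5 and 0 of 4 in the IL34KO and WT macrophage libraries, and 0 of 1 and 0 of 3 in GVHD and BM. Foxp3 was seen as a single UMI in 23 of the 53 cells and as 2 or more in 30, with at most 7 UMIs in a cell.

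The other members accompanied Foxp3. Il2ra, Ikzf2 and Ctla4 were all detected in 29 of 53 Foxp3-positive cells, Ikzf2 and Ctla4 in 47, and all 4 other members in 7. No Foxp3-positive cell lacked all 4, while 6.21 to 18.2% of Foxp3-negative T cells of a library did. In the IL34KO T-cell library the trio of Il2ra, Ikzf2 and Ctla4 was seen in 12 of 17 Foxp3-positive cells, 70.6% (exact interval 44.0 to 89.7%), against 12.7% of Foxp3-negative cells. In the WT T-cell library it was seen in 9 of 23 Foxp3-positive cells, 39.1% (19.7 to 61.5%), against 9.97% of Foxp3-negative cells. The macrophage libraries had the trio in 2 of 5 Foxp3-positive cells in IL34KO, 3 of 4 in WT, 1 of 1 in GVHD and 2 of 3 in BM, against 14.0 to 19.3% of their Foxp3-negative cells. Median depth was close in the T-cell libraries, at 3480 UMIs in Foxp3-positive and 3221.5 in Foxp3-negative cells of IL34KO, and at 3335 and 2959 in WT. In IL34KO the mean depths lay further apart than the medians, with 104436 UMIs in 17 Foxp3-positive and 6672455 in 1604 Foxp3-negative cells. The trio was not counted at equal depth, and the part of depth in it was not tested.

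Most of the members' UMIs still lay outside the Foxp3-positive cells, which were 1.05% of T cells. They held more than that share of the members' T-cell UMIs, at 2.76% of Il2ra, 3.20% of Ikzf2, 3.51% of Ctla4 and 8.65% of Il10. The 1.05% is a share of cells, and their share of the UMIs of all genes in T cells was somewhat larger. Ikzf2 was detected in 49 of 53 Foxp3-positive (92.5%) and 2710 of 5018 Foxp3-negative cells (54.0%). Ctla4 was detected in 51 Foxp3-positive and 3485 Foxp3-negative cells. Il2ra was detected in 32 Foxp3-positive (60.4%) and 1178 Foxp3-negative cells (23.5%). Il10 was detected in 11 Foxp3-positive cells. Most cells with a UMI of Il2ra, Ikzf2 or Ctla4 thus had no Foxp3 UMI, as had 5018 of all 5071 T cells.

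Ctla4 stood at 1609 CPM in Foxp3-positive and 615 CPM in Foxp3-negative cells of the IL34KO T-cell library, and at 1417 against 481 CPM in WT. In the macrophage libraries it stood at 810 against 367 CPM in IL34KO, 1675 against 459 CPM in WT, 748 (2 UMIs) against 638 CPM in GVHD and 1499 against 327 CPM in BM. The Foxp3-positive value was the higher one in all 6 libraries, in GVHD within counting error. In BM 1 cell held 24 of the 28 Foxp3-positive Ctla4 UMIs. Ikzf2 stood at 2241 against 966 CPM in the IL34KO and 2297 against 861 CPM in the WT T-cell library. In the macrophage libraries Ikzf2 stood at 935 against 714 CPM in IL34KO, 2453 against 727 CPM in WT, 10849 (29 UMIs of 1 cell) against 678 CPM in GVHD and 1820 against 532 CPM in BM. Ikzf2 too was higher in the Foxp3-positive cells of all 6 libraries, in the IL34KO macrophage library (30 UMIs) within counting error. In BM 1 cell held 25 of the 34 Foxp3-positive Ikzf2 UMIs.

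Il2ra stood at 373 CPM in Foxp3-positive and 123 CPM in Foxp3-negative cells of the IL34KO T-cell library, and at 213 against 118 CPM in WT. In the macrophage libraries it stood at 249 against 219 CPM in IL34KO, 538 against 120 CPM in WT, 748 (2 UMIs) against 298 CPM in GVHD and 214 (4 UMIs) against 254 CPM in BM. It was higher in Foxp3-positive cells in 5 of the 6 libraries and lower in BM. In the IL34KO macrophage library (8 UMIs), GVHD and BM the difference was within counting error. Il10 stood at 153 against 13.6 CPM in the IL34KO and 60.7 against 10.8 CPM in the WT T-cell library. In the macrophage libraries Foxp3-positive cells held 3 Il10 UMIs in IL34KO, 0 in WT, 1 in GVHD and 1 in BM.

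**Figure D2:**
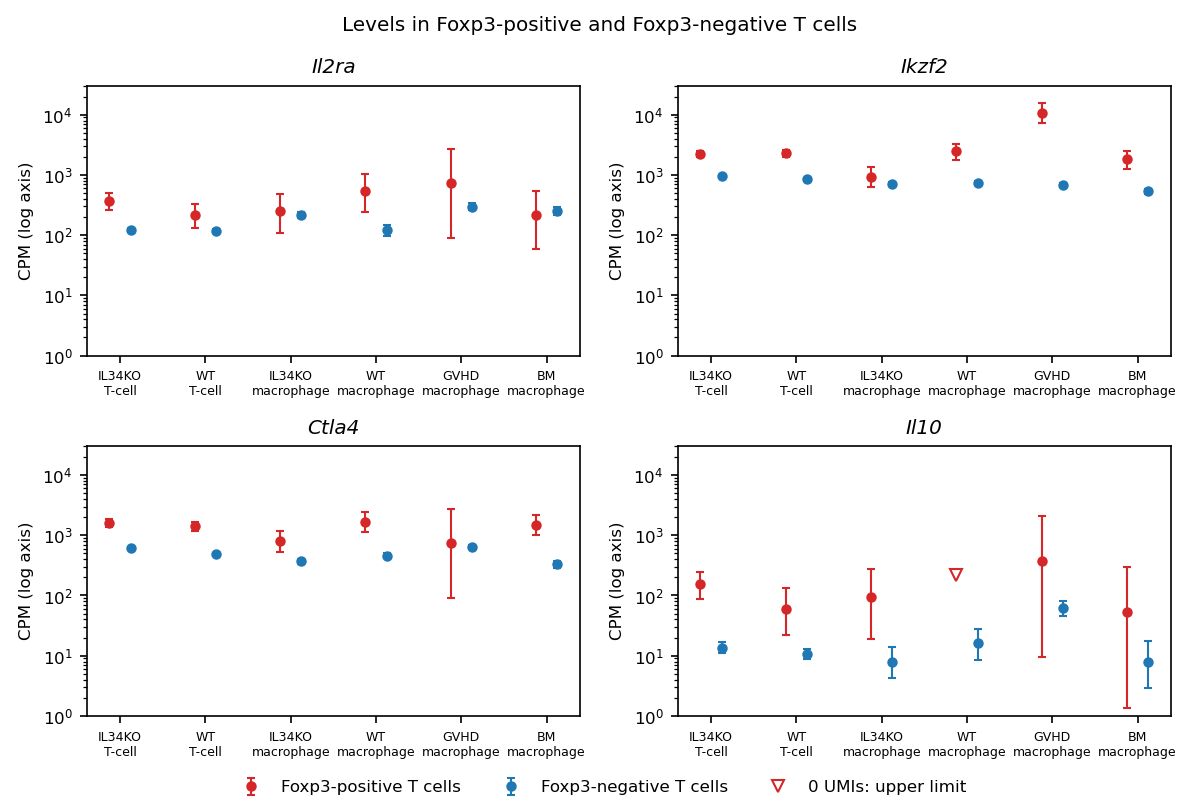
Level of Il2ra, Ikzf2, Ctla4 and Il10 (CPM, log axis) in Foxp3-positive and Foxp3-negative T cells of each library, with exact Poisson 95% intervals (counting error only). Ikzf2 and Ctla4 lie higher in the Foxp3-positive cells of all 6 libraries, within counting error for Ikzf2 in the IL34KO macrophage library and Ctla4 in GVHD. In BM 1 Foxp3-positive cell held 24 of 28 Ctla4 UMIs and 1 held 25 of 34 Ikzf2 UMIs.

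Foxp3-positive and Foxp3-negative cells were tested in the libraries with at least 10 Foxp3-positive cells, which were the 2 T-cell libraries, with 40 against 4383 cells. UMIs were summed per library and class, and edgeR's quasi-likelihood test was run with library as a block and Benjamini-Hochberg adjustment over all 10515 genes tested. Its p-values measure the spread between these 2 libraries, which are of different groups, on 1 residual degree of freedom. At an adjusted p under 0.05, 30 genes rose in Foxp3-positive cells (0.285% of those tested) and 23 fell (0.219%; 0.504% either way), with a median log2 fold change of all genes of -0.17. Of the 4 members tested 3 rose: Ctla4 by a log2 fold change of 1.31 (SE 0.18, adjusted p = 3.0e-04 by edgeR), Ikzf2 by 1.16 (SE 0.17, adjusted p = 0.0011) and Il10 by 2.96 (SE 0.51, adjusted p = 0.0056). The Il10 UMIs came from 6 of the 40 cells, at most 8 in a cell. Il2ra did not pass, at a log2 fold change of 1.12 (SE 0.26, adjusted p = 0.062 by edgeR), and was higher in both libraries.

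Of the genes that rose, the 12 with the highest fold change held several surface receptors. Klrg1, an inhibitory lectin receptor of tissue regulatory and effector T cells, stood at 95.8 and 91.1 CPM in Foxp3-positive cells of the IL34KO and WT T-cell libraries, against 12.6 and 9.34 CPM in their Foxp3-negative cells. Its log2 fold change was 2.93 (SE 0.54), and its UMIs came from 13 of 40 cells. Also among the 12 highest were Ccr2, a chemokine receptor (log2 fold change 2.14), Itgb7, the β7 integrin of gut homing (1.98), and Il7r, the interleukin 7 receptor (1.80). Maf, a transcription factor that acts on Il10, stood at 431 and 557 CPM against 141 and 129 CPM. The remaining genes of the 12 were Frmd5 (4.26, with 24 of its 51 UMIs in 1 cell), Nckap5 (3.98), Neb (2.39), Cep85l (2.33), Gpr55 (2.07), the actin-capping gene Capg (1.92) and Il10 itself.

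Gzma was among the 12 genes that fell most. Gzma, a granzyme, stood at 163 and 70.8 CPM in Foxp3-positive cells of the IL34KO and WT T-cell libraries, against 2023 and 1591 CPM in Foxp3-negative cells, a log2 fold change of -4.11 (SE 0.28, adjusted p = 1.5e-08 by edgeR). Also among the 12 were the DNA ligase gene Lig1 (-4.16), the histone gene Hist1h1b (-4.05), the DNA polymerase gene Pola1 (-2.76), Pclaf (-2.75) and the topoisomerase gene Top2a (-2.40), while of 12 cycling genes on a list 3 fell, as given below. Hist1h2ae, a histone gene, had 0 UMIs in the 40 cells against 48.6 and 150 CPM, at least 7.46-fold lower with a floor of 3 UMIs over the group. The rest of the 12 were Hist1h2ap, Lrrk2, Rad51b, Diaph3 and Penk, the enkephalin precursor gene (-2.53).

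Of 29 genes of a regulatory T-cell list 26 were tested, of which 7 rose and 2 fell, with a median log2 fold change of 1.01 against -0.17 for all genes. Those that rose were Tnfrsf4 (OX40), Capg, Ctla4, Ikzf2, Il10, Tnfrsf18 (GITR) and Icos, and those that fell were Penk and Rgs1. Tnfrsf4 stood at 689 and 729 CPM in Foxp3-positive against 203 and 214 CPM in Foxp3-negative cells of the IL34KO and WT T-cell libraries. Lrrc32, the GARP gene that holds latent TGF-β on regulatory T cells, had 5 UMIs in 4 of the 40 cells and did not pass (log2 fold change 5.15, SE 1.73, adjusted p = 0.36 by edgeR). Of 13 tested tissue regulatory T-cell genes Klrg1 and Areg rose, and the Areg rise rests on 43 of 143 UMIs in 1 cell. Of 6 tested genes tied to RORγt-positive regulatory T cells Maf and Icos rose (median 1.31).

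**Figure D3:**
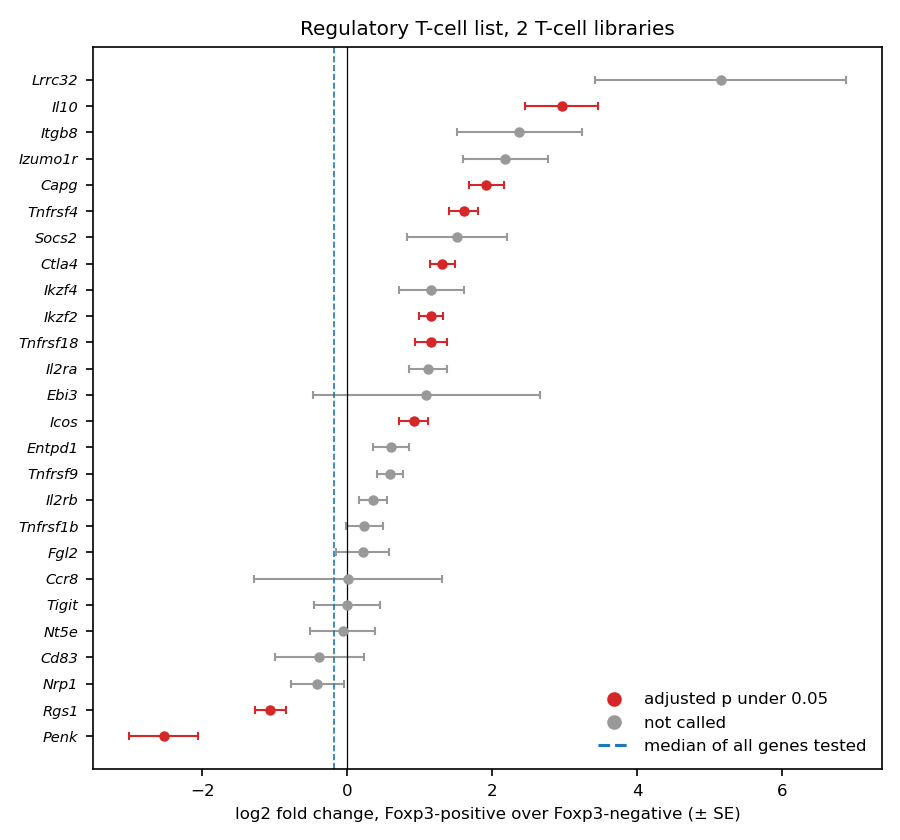
Log2 fold change in Foxp3-positive against Foxp3-negative T cells (edgeR, 2 T-cell libraries) for the tested genes of the regulatory T-cell list, with bars of 1 standard error and called genes marked. The 7 called higher lie between 0.92 and 2.96.

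Among 27 regulators and partners of Foxp3 none was called, with a median of -0.21. None of 8 helper regulators and none of 13 stress genes was called either, with medians of -0.16 and -0.56. By an unadjusted p under 0.05, 249 of all genes were higher and 603 lower. In the interleukin 2 pathway (14 tested) Il7r rose and the survival gene Bcl2 fell by 1.51 on the log2 scale. In the interleukin 10 pathway (12 tested) Il10 and Maf rose. In the CTLA-4 and CD28 axis (12 tested) Ctla4 and Icos rose, and in the Ikaros family (5 tested) Ikzf2 did. Of 16 genes of type 1 regulatory cells 5 rose: Il10, Maf, Gzmb, Ctla4 and Icos. Among 12 effector cytokines Ccl3 and Ccl5 fell, and among 11 cytotoxic genes Gzmb rose while Gzma fell. Of 7 naive-cell genes Il7r rose, and of 12 cycling genes 3 fell (Stmn1, Pclaf and Top2a; median -1.33). These lists share genes with each other.

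Mitochondrial UMIs had a median of 0.905 to 1.0% in Foxp3-positive and 1.47 to 1.53% in Foxp3-negative cells, and stress genes summed to 2499 to 2853 against 2684 to 3236 CPM. Summed myeloid markers stood at 115 to 172 against 132 to 183 CPM, neutrophil markers at 20.2 to 38.3 against 5.10 to 7.01 CPM, from 1 of 6 markers in Foxp3-positive cells, and stromal markers at 144 to 243 against 133 to 140 CPM, with all 5 markers other than Pecam1 at 0 in Foxp3-positive cells. The part of these in the result was not tested. With a looser T-cell gate, or with cells thinned to 1500 UMIs, no gene was called. Over 13 settings, the reported one included, Ctla4 had a log2 fold change of 1.27 to 1.42 and Ikzf2 of 0.93 to 1.29, each called in 11, while Il2ra was called in 5 of 13 and Il10 in 9 of 12.

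Outside Foxp3-positive cells the members were divided between CD8-type and CD4-type cells. Ikzf2 was higher in CD8-type cells, and Il2ra in CD4-type cells. Ikzf2 stood at 1230 CPM in CD8-type against 475 CPM in CD4-type Foxp3-negative cells of the IL34KO T-cell library, at 1092 against 516 CPM in WT, at 1045 against 395 CPM and 1032 against 297 CPM in the IL34KO and WT macrophage libraries, and at 835 against 458 CPM in GVHD. Il2ra stood at 76.2 against 242 CPM in the IL34KO and 71.4 against 217 CPM in the WT T-cell library, at 92.0 against 357 CPM and 87.5 against 163 CPM in the IL34KO and WT macrophage libraries, and at 65.0 against 550 CPM in GVHD. Neither gene's classes overlapped across these 5 libraries. BM, with 9 CD4-type Foxp3-negative cells, was not tested, and its values were 551 against 385 CPM for Ikzf2 and 145 against 275 CPM for Il2ra.

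The edgeR test of 2591 CD8-type against 1177 CD4-type cells in the 5 libraries called 369 of 7186 genes higher (5.13%) and 555 lower (7.72%). Ikzf2 was higher in CD8-type cells by 1.30 on the log2 scale (SE 0.11, adjusted p = 4.9e-07 by edgeR) in 5 of 5 libraries, and Il2ra was lower, at -1.79 (SE 0.17, adjusted p = 2.5e-06), in 5 of 5. Ctla4 was not called, at -0.20 (SE 0.12, adjusted p = 0.37 by edgeR). It stood higher in CD4-type cells in 4 of the 5 libraries and higher in CD8-type cells of the IL34KO macrophage library (431 against 314 CPM). Il10 did not pass the filter on low counts.

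The regulatory T-cell list was split by the receptor classes, with 7 of 20 tested genes higher in CD8-type cells and 8 lower (median -0.09). Higher were Ikzf2, Ikzf4, Entpd1, Rgs1, Fgl2, Il2rb and Tnfrsf9, and lower were Tnfrsf4, Il2ra, Capg, Penk, Cd83, Tnfrsf18, Icos and Nrp1. Tnfrsf4 stood at 52.5 to 89.5 CPM in CD8-type and 355 to 484 CPM in CD4-type cells. In the interleukin 2 pathway Il2rb, the β chain, was higher in CD8-type cells, while Il2ra, Il2rg, Stat5a, Cish and Il7r were lower. In the Ikaros family Ikzf2, Ikzf3 and Ikzf4 were higher. Of 11 cytotoxic genes 9 were higher, with a median of 0.94, and of 8 effector cytokines 6 were lower in CD8-type cells and Ccl5 higher. Of the 26 tested regulators and partners of Foxp3, Dnmt1 was higher and 11 were lower, among them Rel, Stat5a, Nfkb1 and Runx1.

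Among the other lists, 1 of 9 tissue regulatory T-cell genes (Itgae) was higher and 5 were lower, 0 and 2 of 4 RORγt-linked genes, 0 and 2 of 11 interleukin 10 pathway genes and 0 and 4 of 11 genes of the CTLA-4 and CD28 axis. The counts were 3 higher and 3 lower of 14 type 1 regulatory genes, 2 and 4 of 8 helper regulators, 1 and 4 of 6 naive-cell genes, 0 and 0 of 12 cycling genes and 0 and 3 of 13 stress genes. Median depth was 3333 to 6034 UMIs per CD8-type and 2923 to 6593 per CD4-type cell. Dendritic markers summed to 22.5 to 52.0 CPM in CD8-type and 69.3 to 187 CPM in CD4-type cells, lower in CD8-type cells of all 5 libraries, with 6 of 7 markers detected against 5 (Flt3 and Cd209a at 0). Without Ccr7, which naive T cells also carry, they summed to 12.5 to 31.4 against 34.6 to 56.1 CPM. Summed stress genes stood at 2432 to 4639 against 2950 to 6728 CPM, lower in CD8-type cells of 4 of 5 libraries, and the part of these in the result was not tested. Leaving out a library gave 452 to 1208 called genes, and a stricter T-cell gate gave 258. Ikzf2 and Il2ra were called in all 17 settings, with log2 fold changes of 0.81 to 1.39 and of -1.92 to -1.34.

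**Figure D4:**
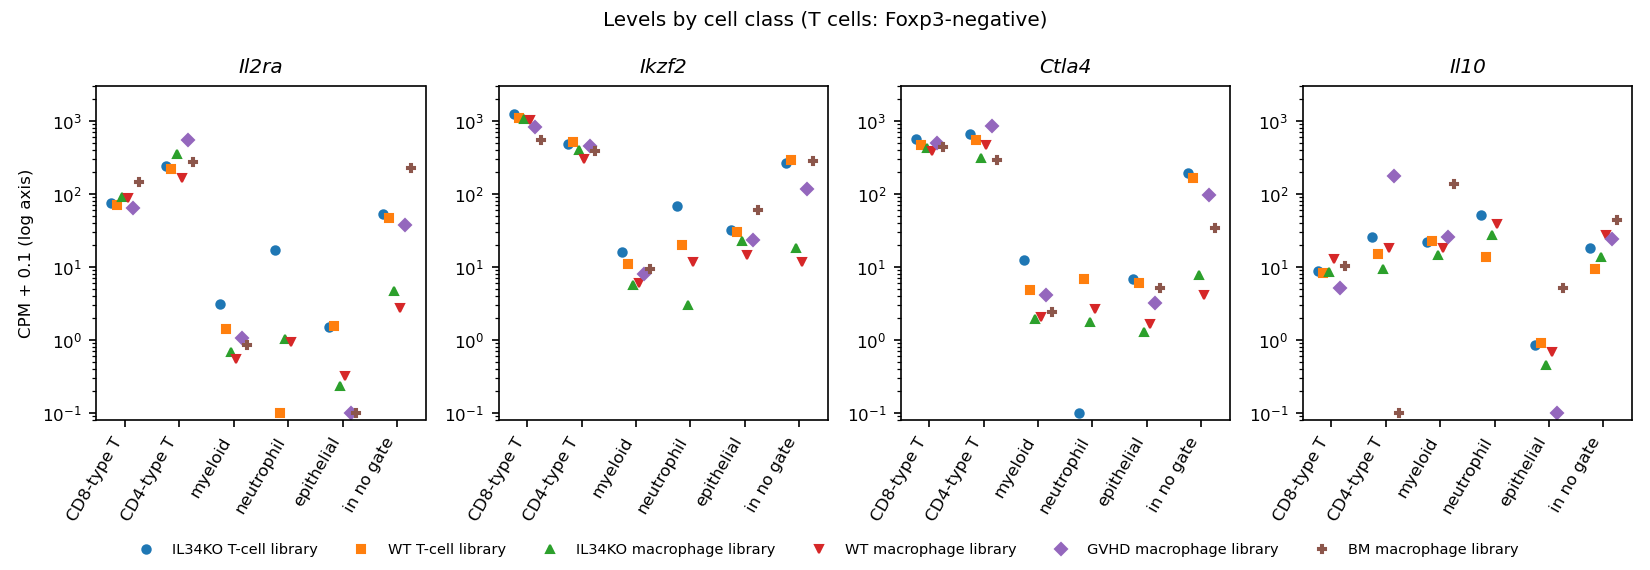
Level of the 4 members other than Foxp3 (CPM + 0.1, log axis) in the cell classes of each library that held at least 9 cells, with T cells restricted to Foxp3-negative ones. Ikzf2 lies higher in CD8-type and Il2ra in CD4-type T cells, and Il10 stands at 173 CPM in CD4-type T cells of GVHD, where 1 cell held 35 of 45 UMIs, and at 136 CPM in myeloid cells of BM.

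Foxp3-negative cells with an Il2ra UMI were compared with those without in all 6 libraries (1178 against 3840 cells). Of 6880 genes tested 305 were higher in Il2ra-positive cells (4.43%) and 254 lower (3.69%), 8.12% in either direction. Neither tested member was called: Ctla4 had a log2 fold change of -0.10 (SE 0.08, adjusted p = 0.53 by edgeR) and Ikzf2 of -0.25 (SE 0.12, adjusted p = 0.25). The highest were the chemokine gene Ccl1, at 229 to 558 CPM in Il2ra-positive and 4.91 to 52.4 CPM in Il2ra-negative cells, and the cytokine gene Csf2, at 11.7 to 357 CPM against 0 to 19.6 CPM. The others of the 12 highest were Cd70 (2.35), Tnfsf11 (RANKL, 2.22), Il1rl1 (ST2, 2.13), Penk (1.89), Cd81, Igfbp7, Tff1, Xcl1, St6gal1 and Exph5. The lowest were Cd7 (-1.61), Itih5, the granzyme gene Gzmk (-1.26), Ccl5 (-1.22), Tmcc3, Lax1, Eomes (-1.14), Tmem131l, Lats2, Sh2d3c, Serp2 and Lpin1.

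The interleukin 2 pathway gave 3 genes higher in Il2ra-positive cells and 1 lower, of 13 tested: Cish, a target of interleukin 2 signalling (1.02), Stat5a, the transducer of the receptor (0.73), and Il7r, against Bcl2 (-0.38). Of 26 regulators and partners of Foxp3, 9 were higher and 0 lower, among them Nfkb1, Rel, Stat5a and Myb. Of 19 regulatory T-cell genes 5 were higher (Cd83, Capg, Tnfrsf4, Penk and Tnfrsf18) and Entpd1 was lower, and of 9 tissue regulatory genes 4 were higher (Il1r2, Il1rl1, Rora and Gata3). Of 8 effector cytokines 4 were higher (Csf2, Ifng, Ccl3 and Xcl1) and Ccl5 was lower, with a median of 0.71 against -0.0014 for all genes. Ifng, the type 1 cytokine gene, stood at 378 to 1630 CPM in Il2ra-positive and 318 to 589 CPM in Il2ra-negative cells. Cytotoxic genes gave 0 higher and 3 lower of 11 (Gzmk, Fasl and Ctsw).

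Of the other lists, naive-cell genes gave 3 higher and 1 lower of 6, helper regulators 2 and 2 of 8, the interleukin 10 pathway 1 and 1 of 11, the CTLA-4 and CD28 axis 1 and 1 of 11, type 1 regulatory genes 0 and 1 of 14, and the Ikaros family 0 and 1 of 5. None of 4 RORγt-linked, 12 cycling or 13 stress genes was called. Il2ra-positive cells were deeper, with medians of 4186 to 7966 UMIs against 2740.5 to 5292 in Il2ra-negative cells, and held a higher share of CD4-type cells in all 6 libraries (9.84 to 53.6% against 6.0 to 27.6%). Dendritic markers summed to 54.9 to 155 CPM in Il2ra-positive and 19.6 to 56.2 CPM in Il2ra-negative cells and were higher in all 6 libraries, with 5 of the 7 markers detected (Flt3 and Cd209a at 0) against 6. Ccr7, which naive T cells also carry, made up 22.9 to 123 CPM against 9.37 to 27.4 CPM of these sums. The part of these in the result was not tested. Thinning to 1500 UMIs left 231 called genes and CD4-type cells alone 314. Dropping the library block gave 93, a stricter T-cell gate 147, and leaving out 1 library 192 to 910.

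Ikzf2-positive Foxp3-negative cells (2710 against 2308 cells, 6 libraries) had 216 genes higher (3.34% of 6458 tested) and 246 lower (3.81%), 7.15% in either direction. The other members were not called, with Il2ra at -0.48 (SE 0.17, adjusted p = 0.11 by edgeR) and Ctla4 at 0.01 (SE 0.09, adjusted p = 0.97). Gzma stood at 996 to 4012 CPM in Ikzf2-positive and 250 to 2097 CPM in Ikzf2-negative cells. The 12 highest were Filip1 (2.53), Prr5l (2.12), Eml1, the granzyme gene Gzmc (1.61), Myo10, Gzma (1.47), Serpine2, Trerf1, Rab3ip, Fndc3b, Spp1 and Cdc20. The lowest were Ly6c2 (-1.86), the CD40 ligand gene Cd40lg (-1.52), Anxa1, Klf3, Itgax, Irf4 (-0.95), Rgcc, Klf2 (-0.89), Mylip, Tagap, Rgs10 and Slfn2.

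Of 12 cycling genes 6 were higher in Ikzf2-positive cells and 0 lower (median 0.64, against -0.0077 for all genes), among them Ccnb1, Ccnb2 and Mcm5. Cytotoxic genes gave 4 higher and 2 lower of 11, and the regulatory T-cell list 2 higher of 18, Tnfrsf9 (0.90) and Ikzf4 (0.84), which encodes Eos, a relative of Helios. Of 26 regulators and partners of Foxp3 0 were higher and 8 lower, among them Lef1, Smad3, Nfatc1 and Nfatc2. Of 13 stress genes 5 were lower, among them Egr1 and Hspa1b, and of 11 genes of the CTLA-4 and CD28 axis Cd28, Lax1 and Btla were. Higher and lower counts were 0 and 1 of 8 for tissue regulatory genes, 0 and 2 of 12 for the interleukin 2 pathway, 1 and 0 of 11 for the interleukin 10 pathway, 1 and 0 of 4 for the Ikaros family, 1 and 1 of 14 for type 1 regulatory genes, 0 and 2 of 8 for effector cytokines and 0 and 2 of 6 for naive-cell genes. None of 4 RORγt-linked genes and 8 helper regulators was called. Median depth was 3770 to 6968 UMIs in Ikzf2-positive and 2306 to 5389 in Ikzf2-negative cells, and within CD4-type cells 6 genes were called in all. CD8-type cells made up 47.2 to 64.7% of Ikzf2-positive and 27.4 to 63.9% of Ikzf2-negative cells, a higher share in 5 of 6 libraries, and their part in the result was not tested. Il2ra was called lower in 2 of 19 settings.

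Ctla4-positive Foxp3-negative cells (3485 against 1533 cells, 6 libraries) had 24 genes higher (0.337% of 7128 tested) and 25 lower (0.351%), 0.687% in either direction. Ikzf2, at 0.32 (SE 0.14, adjusted p = 0.40 by edgeR), and Il2ra, at 0.11 (SE 0.15, adjusted p = 0.90), were not called. Among the highest were Havcr2, the inhibitory receptor TIM-3 (0.77, at 105 to 179 against 37.7 to 112 CPM), and Tnfrsf9, the costimulatory receptor 4-1BB (0.65). The other highest were Uhrf1, Plcl1, Pgap1, Nmrk1, Gmnn, Ttc39c, Zeb2, Mxi1, Gtdc1 and Hist1h1b. The lowest were the heat-shock genes Hspa1b (-1.71) and Hspa1a (-1.44), followed by Pip5k1b, Cd7 (-0.96), Klf2, Cd69, Ifi206, Jun (-0.78), Rnf167, Ifi47, Tnf (-0.67) and Mir142hg.

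By list, 3 of 13 stress genes were lower in Ctla4-positive cells (Hspa1b, Hspa1a and Jun), Havcr2 was the gene called higher among 10 of the CTLA-4 and CD28 axis, 13 of type 1 regulatory cells and 4 linked to RORγt, and Tnfrsf9 among 19 of the regulatory T-cell list. Stat3 rose among 11 of the interleukin 10 pathway, Ifng rose and Tnf fell among 9 effector cytokines, and Klf2 fell among 6 naive-cell genes. No gene was called by edgeR among 8 tissue regulatory genes, 26 regulators of Foxp3, 14 of the interleukin 2 pathway, 5 Ikaros genes, 8 helper regulators, 11 cytotoxic and 12 cycling genes. Summed stress genes stood at 2635 to 5358 CPM in Ctla4-positive and 2828 to 8940 CPM in Ctla4-negative cells, and median depth at 3442 to 6587 against 2280.5 to 5324 UMIs. With no library block, a stricter T-cell gate or CD4-type cells alone, no gene was called, and leaving out 1 library gave 3 to 161.

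Most Il10 lay in myeloid cells, which were also 22888 of the 36798 cells, against 5071 T cells. Of 9834 Il10 UMIs in all cells, T cells held 312 (3.17%) and myeloid cells 8631 (87.8%), while T cells held 63.4% of all Foxp3 UMIs, 73.2% of Il2ra, 72.9% of Ikzf2 and 78.2% of Ctla4. Myeloid Il10 stood at 21.8 and 22.9 CPM in the IL34KO and WT T-cell libraries, 14.4 and 18.2 CPM in the IL34KO and WT macrophage libraries, and 25.9 and 136 CPM in GVHD and BM. T cells stood at 15.8 and 11.3, 9.66 and 15.9, and 62.6 and 9.02 CPM in the same order, with 35 of 52 GVHD UMIs in 1 cell. BM held 3780 of the 8631 myeloid UMIs. In BM 41.2% of myeloid cells had an Il10 UMI, against 7.39 to 19.6% in the other 5 libraries, and after thinning 11.8% had one. Neutrophils of the IL34KO and WT macrophage libraries stood at 27.5 and 38.3 CPM. Epithelial cells, which should make little Il10, stood at 0.761 and 0.816 CPM in the IL34KO and WT T-cell libraries, below the 13.6 and 10.8 CPM of their Foxp3-negative T cells.

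Within Foxp3-negative T cells of the WT T-cell library Il10 stood at 8.05 CPM in CD8-type and 14.7 CPM in CD4-type cells. In the IL34KO T-cell library it stood at 8.83 against 25.3 CPM, but 24 of the 36 CD4-type UMIs came from 2 cells, and without them the CD4-type level was 8.45 CPM. The share of cells with an Il10 UMI was 2.39% of CD8-type and 2.65% of CD4-type cells in IL34KO, and 2.86% against 3.51% in WT. Cells with an Il10 UMI were compared with cells without in the 3 libraries that held at least 10 of them, both T-cell libraries and the IL34KO macrophage library (130 against 4518 cells). Of 8134 genes tested 5 were higher (0.0615%) and 14 lower (0.172%), 0.234% in either direction. No member was called. Ctla4 was at 0.59 (SE 0.14, adjusted p = 0.061 by edgeR), and stood at 866, 750 and 594 CPM in Il10-positive against 608, 471 and 358 CPM in Il10-negative cells. Il2ra was at -0.08 (SE 0.21, adjusted p = 1.0) and Ikzf2 at -0.15 (SE 0.14, adjusted p = 1.0). Ctla4 was called in 4 of 16 settings, one of them CD4-type cells alone, with 1.21.

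Among the 4 named genes that rose with Il10, Maf stood at 307, 224 and 305 CPM in Il10-positive and 137, 125 and 123 CPM in Il10-negative cells (1.01, SE 0.18). Il21, a cytokine gene of helper cells (2.20), and the chemokine genes Ccl4 (0.85) and Ccl5 (0.56) rose too. Maf also rose in Foxp3-positive cells, above. The lowest was Xcl1, the lymphotactin gene, at 18.4, 27.0 and 80.3 CPM against 296, 215 and 669 CPM. Ptprk (-2.88), the chemokine gene Ccl1 (-2.57), Tbc1d4 (-2.21), Plxdc2, Tnfsf8 (-1.85), Exph5, Tff1, Tnfsf11 (-1.35), the activating receptor gene Cd226 (-1.15), Nrgn and Utrn also fell. Ccr7, the receptor for lymph-node homing, fell with 0 UMIs in the 130 cells against 26.6 to 40.3 CPM.

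By list in that comparison, effector cytokines gave 3 higher and 1 lower of 10, type 1 regulatory genes 1 and 1 of 14, RORγt-linked genes 1 and 0 of 5, the interleukin 10 pathway 1 and 0 of 11, tissue regulatory genes 0 and 1 of 10 (Rora) and naive-cell genes 0 and 1 of 6. No gene was called by edgeR among 21 of the regulatory T-cell list, 26 regulators of Foxp3, 14 of the interleukin 2 pathway, 11 of the CTLA-4 and CD28 axis, 5 Ikaros genes, 8 helper regulators, 11 cytotoxic, 12 cycling and 13 stress genes. Dendritic markers stood at 6.14 to 21.6 CPM in Il10-positive and 66.4 to 80.0 CPM in Il10-negative cells, and that list contains Ccr7. Of its 7 markers Zbtb46 and Fscn1 were detected in Il10-positive cells and the other 5 were at 0. Myeloid markers, of the class that held most Il10, summed to 154, 216 and 145 CPM in Il10-positive against 131, 182 and 130 CPM in Il10-negative cells, higher in all 3 libraries. Median depth was 3609.5, 3915 and 4473 against 3217.5, 2951 and 4498.5 UMIs. The part of these in the result was not tested. Leaving out a library gave 6 to 42 called genes, and dropping the library block 5.

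Over all T cells, the order of levels differed between the members. The labels name both 5′ and 3′ kits but not the kit of each library, so levels across libraries may not be on 1 scale and the order is a description. Il2ra was highest in GVHD at 300 CPM (exact Poisson interval 264 to 340), followed by BM (253), the IL34KO macrophage library (219), the WT macrophage library (128), the IL34KO T-cell library (127) and the WT T-cell library (119). The intervals of all neighbours in that order overlap except those of the IL34KO and WT macrophage libraries. Without the barcodes shared with BM, GVHD stood at 232 CPM for Il2ra. Ikzf2 was highest in the IL34KO T-cell library at 986 CPM, followed by WT T-cell (874), WT macrophage (762), IL34KO macrophage (718), GVHD (711) and BM (563), and the middle 3 macrophage libraries overlapped. Ctla4 ran from GVHD (638 CPM) and IL34KO T-cell (630) over WT T-cell (490) and WT macrophage (484) to IL34KO macrophage (375) and BM (356), 3 pairs that overlapped within and not between. Il10 stood at 62.6 CPM in GVHD and at 9.02 to 15.9 CPM in the other 5, which overlapped.

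IL34KO and WT are 1 library each per sort, so the differences between them are given with counting intervals and no test. In T cells of the T-cell libraries, Ctla4 stood at 630 CPM in IL34KO and 490 CPM in WT, a ratio of 1.29 (1.23 to 1.34). Ikzf2 stood at 986 against 874 CPM (1.13, 1.09 to 1.16), Il2ra at 127 against 119 CPM (1.07, 0.978 to 1.17) and Foxp3 at 4.87 against 4.05 CPM (1.20, 0.739 to 1.94). Il10 stood at 15.8 against 11.3 CPM (1.40, 1.07 to 1.84), while the share of cells with an Il10 UMI was 2.59% in IL34KO and 2.96% in WT. Of the 107 IL34KO UMIs 3 cells held 37, and without those cells the level was 10.3 CPM in IL34KO. With the stricter T-cell gate the Il10 log2 ratio turned to -0.50. No member reached a 1.5-fold difference, which 0.936% of 6412 genes with at least 20 CPM in either library did upward and 0.530% downward. Foxp3 and Il10 lay below 20 CPM in both libraries and are not among these genes. Ctla4 was higher in IL34KO in CD8-type cells (1.24, 1.17 to 1.31) and in CD4-type cells (1.22, 1.12 to 1.33). Myeloid cells of the same libraries, which should lack Ctla4, had 12.2 CPM in IL34KO and 4.72 CPM in WT, far below the T cells, and the part of free RNA was not tested.

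Ikzf2 did not keep its direction in the T-cell libraries: it was 1.13-fold in CD8-type and 0.915-fold in CD4-type cells (0.832 to 1.01). CD4-type Il10 stood at 31.5 CPM in IL34KO and 15.5 CPM in WT, with 45 UMIs in 12 cells against 34 in 23, and 2 of the IL34KO cells held 13 and 11 of the UMIs. In Foxp3-positive cells alone Il2ra stood at 373 CPM in IL34KO and 213 CPM in WT (1.76, 1.01 to 3.14), from 39 and 21 UMIs. Ctla4 (1.14, 0.902 to 1.43), Ikzf2 (0.975, 0.809 to 1.18) and Il10 (2.52, 0.938 to 7.87) had intervals that include 1.

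In T cells of the macrophage libraries Ctla4 lay the other way, at 375 CPM in IL34KO and 484 CPM in WT (0.775, 0.682 to 0.882). It did so in CD4-type cells (0.639, 0.519 to 0.788) and not in CD8-type cells (1.11, 0.914 to 1.36). Il2ra stood at 219 against 128 CPM (1.71, 1.37 to 2.14), with 62 of the 363 IL34KO UMIs in 1 cell. Ikzf2 (0.943, 0.855 to 1.04), Foxp3 (0.617, 0.219 to 1.80) and Il10 (0.607, 0.274 to 1.37) had intervals that include 1. Of 6646 genes with at least 20 CPM in either library, 6.17% were at least 1.5-fold higher in IL34KO and 6.32% lower, and Il2ra was among such genes. Foxp3 and Il10 were at least 1.5-fold lower by point value, but lay below 20 CPM in both libraries and are not among the 6646.

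Between GVHD and BM, T cells of the macrophage libraries had intervals that exclude 1 for Ctla4, Ikzf2, Il10 and Foxp3. Ctla4 stood at 638 CPM in GVHD and 356 CPM in BM (1.79, 1.55 to 2.08). Il10 stood at 62.6 against 9.02 CPM, with 52 against 7 UMIs, of which 1 GVHD cell held 35. Without that cell GVHD stood at 20.6 CPM, and the share of T cells with an Il10 UMI was 5.48% in GVHD and 5.26% in BM. Ikzf2 stood at 711 against 563 CPM (1.26, 1.11 to 1.43) and Il2ra at 300 against 253 CPM (1.19, 0.981 to 1.44). Foxp3 had 1 UMI against 10, of which 1 BM cell held 7, a ratio of 0.0935 (0.00215 to 0.657). Of 6751 genes with at least 20 CPM in either library, 18.5% were at least 1.5-fold higher in GVHD and 11.4% lower. Foxp3, below 20 CPM in both libraries, is not among these genes. The T cells of these libraries had different receptor classes, 54 CD8-type and 50 CD4-type in GVHD against 66 and 11 in BM. Another 38 cells in GVHD and 37 in BM showed neither receptor. Their Il2ra stood at 317 CPM in GVHD and 493 CPM in BM, where they held 108 of the 196 T-cell Il2ra UMIs. Their Ctla4 stood at 91.2 CPM in BM, the lowest value of that class in any library. Within CD8-type cells Ctla4 stood at 493 against 434 CPM (1.13, 0.930 to 1.38), Ikzf2 at 835 against 551 CPM (1.52, 1.29 to 1.79) and Il2ra at 65.0 against 145 CPM (0.447, 0.274 to 0.710). In CD4-type cells Il2ra lay the other way, at 550 against 248 CPM (2.22, 1.34 to 3.92), while Ctla4 stood at 854 against 641 CPM (1.33, 0.961 to 1.89). Of the 44 BM Ctla4 UMIs there 1 cell held 24. Ikzf2 stood at 458 against 684 CPM there (0.669, 0.474 to 0.959), but 1 BM cell held 25 of the 47 BM UMIs. Among Foxp3-negative CD4-type cells, given above, the Ikzf2 value was higher in GVHD than in BM. BM held only 9 such cells, and no interval was taken for that difference.

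Barcodes that GVHD shares with BM bear on these ratios, since they make up 43 of the 146 GVHD T cells and were dropped from BM. With them left out of GVHD too, 103 GVHD T cells had Ctla4 at 895 CPM (2.52, 2.13 to 2.97), Il10 at 147 CPM and Ikzf2 at 645 CPM (1.15, 0.970 to 1.35). Il2ra then lay lower in GVHD, at 232 against 253 CPM (0.917, 0.697 to 1.20), and Foxp3 had a ratio of 0.228 (0.00524 to 1.60). Ctla4 and Il10 had intervals that exclude 1 in both versions, but the GVHD cell with 35 Il10 UMIs was in both. With the shared barcodes left out, Ctla4 was at 1.23 (0.889 to 1.67) in CD8-type and 1.84 (1.31 to 2.62) in CD4-type cells. The BM side of the CD4-type ratio was again 44 UMIs, 24 of them in 1 cell.

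**Figure D5:**
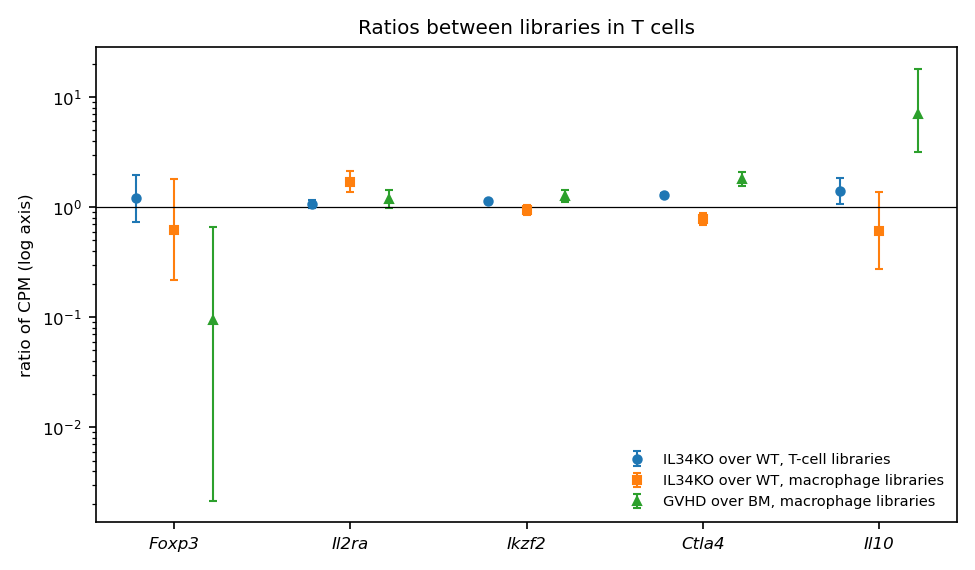
Ratio of CPM in T cells (log axis) for each member in IL34KO over WT T-cell libraries, IL34KO over WT macrophage libraries and GVHD over BM, with exact 95% conditional intervals (counting error only, 1 library per group). Ctla4 is at 1.29 in the T-cell libraries, 0.775 in the macrophage libraries and 1.79 in GVHD over BM.

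Likeness of pattern was measured by Pearson's r of log2(CPM + 10) over 26 cell classes of at least 50 cells, which share libraries and their depth, so it is a description. The genes most like Ctla4 were Lck, the kinase of T-cell receptor signalling (0.992), Icos, Themis, Il2rb and Tbx21. Those most like Ikzf2 were Tmem163 (0.984), Klrc1, Il2rb, Lck and Camk4, and those most like Il2ra included Btbd11 (0.967), Gata3, Sesn3 and Tnfrsf4. Among the members, Ikzf2 and Ctla4 had an r of 0.969 and Il2ra and Ctla4 of 0.923. Foxp3 was less like any gene, with Ccdc184 first at 0.870 on few UMIs, and Il10, with Arl4c first (0.819), had an r of -0.05 with Foxp3.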

How the data were processed

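Droplet single-cell libraries were made from sorted live colon cells with 10x chemistry. The labels' protocols name both 5′ and 3′ kits without saying which library each one served. The authors deposited counts of UMIs per gene and barcode, made with Cell Ranger 7.0.1 on mm10, per the submitters' processing notes. Barcodes with fewer than 500 genes or over 10% mitochondrial UMIs were left out, Scrublet doublets were removed (Python 3.11.15, scanpy 1.11.5), and its automatic threshold marked 0 in the macrophage libraries, where the expected number by score (0.8% per 1000 barcodes) was removed. BM barcodes also found in GVHD were dropped. A T cell had at least 3 UMIs of T-cell markers and at least 3 times those of each other class.

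Sums per library and class were tested with edgeR 4.0.16 (R 4.3.3; TMM, filterByExpr, quasi-likelihood, Benjamini-Hochberg over all genes tested, called at 0.05), a procedure that was tested on simulated data. DESeq2 1.42.0 was an alternative. The gene that defines a split got no test there. Named genes were the 12 highest and 12 lowest called genes with a mean of at least 20 CPM and 1 sign in every library, without receptor, mitochondrial, ribosomal, Gm and Rik genes, and members of lists. Intervals are exact at 95%, Poisson for levels, Clopper-Pearson for shares and conditional binomial for ratios. Members, lists and tests were chosen with earlier results of these data known, and the splits by Il2ra, Ikzf2, Ctla4 and CD8 or CD4 type were added after the data were seen. Nothing says whether a library held 1 animal or several, so p-values measure the spread between libraries. Of the gene identifiers 32158 matched GENCODE M21, which gave coordinates. Not every gene that met a naming rule is reported here.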

Additional observations from a re-analysis of the deposited data

Results flagged for a closer look

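Ctla4 lay in opposite directions in T cells of the T-cell and of the macrophage libraries. Its level in IL34KO over WT was 1.29 in the T-cell libraries and 0.775 in the macrophage libraries, with 1621 and 2802 T cells behind the first ratio and 270 and 118 behind the second. In CD8-type cells both ratios were above 1, at 1.24 (1.17 to 1.31) in the T-cell and 1.11 (0.914 to 1.36) in the macrophage libraries. The opposite direction lay in CD4-type cells of the macrophage libraries (0.639) and in their cells with neither receptor, at 347 CPM in IL34KO and 1224 CPM in WT, from 39 and 17 cells. Each arm was 1 library, so the difference between the ratios was not tested. The macrophage sort, which T cells should not pass, the depth and the number of T cells differ between these libraries and cannot be told apart from the ratio.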

How the results depend on the processing

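The counts of called genes depended on the settings, and the cause was not tested. For Foxp3-positive against Foxp3-negative cells (53 called) DESeq2 gave 34, no filter on low counts 90, doublets kept 98, looser cell filters 136, libraries with at least 3 positive cells 101 and at least 2 Foxp3 UMIs 144, the last 2 chosen after seeing the data. A looser T-cell gate and thinning to 1500 UMIs gave 0. For Il10 (19 called) DESeq2 gave 5, no filter 37, no library block 5, the looser gate 9, a stricter gate 11, thinning 30 and leaving out 1 library 6 to 42. For Il2ra (559 called) no filter gave 852, no library block 93, the stricter gate 147, CD4-type cells alone 314, thinning 231 and leaving out 1 library 192 to 910. For Ikzf2 (462 called) DESeq2 gave 242, no filter 764, no library block 17, the stricter gate 55, stricter cell filters 285, CD4-type cells alone 6, thinning 268 and leaving out 1 library 107 to 733. For Ctla4 (49 called) DESeq2 gave 77, no filter 191, the looser gate 12, leaving out 1 library 3 to 161, and no library block, the stricter gate and CD4-type cells alone 0 each. For CD8-type against CD4-type cells (924 called) DESeq2 gave 577, no library block 577, the stricter gate 258, thinning 466 and leaving out 1 library 452 to 1208.

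The share of T cells with a Foxp3 UMI was 0.528% in CD4-type cells of the IL34KO T-cell library and 0.483% after thinning in the WT T-cell library. It was 0 in the IL34KO macrophage library with the stricter gate, 0 in GVHD with stricter cell filters or CD4-type cells alone, and 0 with the stricter gate and 18.2% in CD4-type cells in BM. For IL34KO over WT T-cell libraries the log2 ratio of Ikzf2 turned to -0.035 with the stricter gate and -0.13 in CD4-type cells, and was 0.064 with cells weighted equally, 0.10 after thinning and 0.10 with TMM scaling. That of Il10 turned to -0.50 with the stricter gate and was 1.02 in CD4-type cells. That of Ctla4 was 0.29 in CD4-type cells and with TMM scaling, and that of Foxp3 -1.71 in CD4-type cells. For GVHD over BM the Ikzf2 log2 ratio turned to -0.58 in CD4-type cells and was 0.52 with the looser and 0.078 with the stricter gate. In those CD4-type cells 1 BM cell held 25 of the 47 BM Ikzf2 UMIs, and 1 held 24 of the 44 BM Ctla4 UMIs. Ctla4 was at 1.09 with cells weighted equally, 1.46 with the stricter gate and 0.42 in CD4-type cells, Il2ra at 1.15 in CD4-type cells and -0.067 after thinning, and Foxp3 at -0.28 after thinning. With the barcodes shared with BM left out of GVHD too, chosen after seeing the data, Il2ra was at -0.12 and Ctla4 at 1.33.

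The Foxp3 comparison was not run with the stricter gate, in CD4-type cells or without 1 library, since too few positive cells or no residual degree of freedom remained. No paired analysis was possible because the labels give no replicate numbers that pair libraries of different groups, while splits within libraries had the library as a block. The 53 Foxp3-positive cells, 1 to 23 in a library, limit the precision of every value on them.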
